A study of Mus musculus with 4 samples.

Results

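The genes described here encode parts of the lysosome, the acidic organelle in which a cell breaks down what it has taken up. They are 38 of the 32286 features of the deposited count tables and were given as a list of symbols. They comprise 16 subunits or accessory proteins of the vacuolar H+-ATPase (V-ATPase), 7 proteins of the lysosomal membrane, 14 hydrolases and other proteins of the lumen, and the transcription factor Tfeb. All 38 symbols were found in each of the 4 libraries.

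The cells came from mice of genotype Tmem119-2A-CreERT2;Ai6, in which Cre made under control of the microglial gene Tmem119 switches on the green protein ZsGreen, and every group carries both alleles. The 2 stroke groups, female and male, had the right middle cerebral artery ligated for good, and the 2 sham groups, female and male, had the operation without the ligation. Live ZsGreen+ cells of the operated side's hemisphere were sorted on day 3 and counted with 10x Genomics 3' v3.1 chemistry. Each of the 4 groups is 1 pool of 4 mice, so variation between mice was not measured. The series asks how microglia, the resident phagocytes of the brain, differ after stroke.

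The V-ATPase pumps protons into the lysosome, with a cytosolic V1 part that splits ATP and a V0 part that passes protons through the membrane. Membrane proteins protect the wall of the organelle and carry lipids and ions across it, and the hydrolases inside digest glycans, lipids and proteins at acid pH. Many of these genes are known targets of TFEB and its relatives, which bind the sequence TCACGTGA and its core CACGTG, and microglia use the pathway to digest debris and dead cells.

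After quality control 4982 cells of the female stroke pool, 4007 of the female sham pool, 4099 of the male stroke pool and 4957 of the male sham pool remained. Of these 2933, 3168, 2751 and 4003 were microglia-like, with 31003352, 19905451, 28455974 and 23789845 unique molecular identifiers (UMIs, counts of captured RNA molecules) in the same order. All 11 microglial markers were detected in the microglia-like cells of every pool, at a summed 196 and 206 UMIs per 10,000 in the female and male stroke pools and 312 and 295 in the female and male sham pools. A further cluster with all 11 markers, numbered 7 and led among microglial clusters by Spp1 and Igf1, had 1 marker of another cell type and none of microglia among its 10 leading genes against other cell types. It is described by its number and was left out of the microglia-like cells, which took away 15.5% of female stroke, 0.0316% of female sham, 15.7% of male stroke and 0.249% of male sham candidates. Stroke microglia-like cells were deeper, with a median of 8014 and 7912 UMIs per cell against 6174 and 5421 in the female and male sham pools. Their median mitochondrial share was also higher, at 4.85% and 4.40% against 2.08% and 1.18%. The male sham library had been deposited with no barcode under 4198 UMIs, whereas the others began at 500 or 501. Pairs of libraries shared 4 to 11 barcodes, at most 0.22% of the smaller.

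Most members were higher in stroke than in sham microglia-like cells. Of the 37 members with enough counts to test, 26 rose and 1 fell (edgeR quasi-likelihood test, adjusted p under 0.05 over all 13936 genes). The change was widespread outside the list too, since 22.5% of all genes tested rose and 21.5% fell. The median log2 change was 0.50 over the 37 members and -0.05 over all genes. The members were chosen with earlier results of these data known, so these counts describe the list and are no independent test. Of 79 tested genes of a wider lysosomal list described below, 24 rose (30.4%) and 8 fell (10.1%), with a median log2 change of 0.02. In 28 members both stroke pools lay above both sham pools, an order held by 34.7% of all genes, and in 3 members both lay below, an order held by 39.2%. With cluster 7 added to the microglia-like cells, 26 members again rose and 1 fell, while 25.1% and 24.8% of all genes did.

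The counts depend on how the pools are scaled. Scaling by the library totals alone, in place of TMM factors (0.914 and 0.913 in the female and male stroke pools, 1.12 and 1.07 in the sham pools), moved the median of all genes by -0.26 on the log2 scale. Then 11 members rose and 4 fell, against 14.7% of all genes that rose and 40.4% that fell, so that 26.7% of the calls over all genes were rises instead of 51.2%. By role these were 3 V-ATPase genes that rose (Atp6v1a, Atp6v1b2 and Atp6v0c) and 2 that fell (Atp6v0b and Atp6v1h), 1 membrane gene that rose (Cd63) and 1 that fell (Mcoln1), 7 hydrolase genes that rose and Tfeb, which fell. Without the female stroke pool 11 members rose, against 13% of all genes that rose and 8.43% that fell. Without the male stroke pool 10 rose, against 14.3% of all genes that rose and 9.88% that fell. The fits without a stroke pool took treatment alone as a term, so sex was partly mixed with treatment in them. With cells of at most 5% mitochondrial UMIs and at least 1000 genes 19 rose and 1 fell, against 18.4% and 15.1% of all genes. With every cell thinned to 3000 UMIs 21 rose, against 15.8% of all genes that rose and 11.5% that fell. Cells with fewer UMIs were left out there, 257 and 258 in the female and male stroke pools and 304 and 0 in the sham pools. The part of the mitochondrial share and of depth in these changes was not tested beyond those counts. The UMIs of 11 monocyte-derived macrophage markers in the microglia-like cells summed to 3.16 and 3.01 per 10,000 in the female and male stroke pools and to 0.168 and 0.149 in the sham pools, with no marker at 0 in any pool. Without the 800 microglia-like cells that held at least 2 of these markers, 25 members rose and 1 fell, against 20.2% and 18.7% of all genes. Of the 15 lists of other cell types' markers, this one included, 5 were higher in both stroke pools, 9 were lower in both and 1 overlapped. Ependymal and choroid plexus markers summed to 1.80 and 1.19 per 10,000 in the female and male stroke pools and to 5.80 and 16.8 in the sham pools, with 1 to 3 of 8 at 0. Neuronal markers summed to 0.0593 and 0.0647 in the stroke pools and to 0.718 and 0.919 in the sham pools, with at most 1 of 8 at 0. The dendritic cell list, which holds Cst3 and Siglech that microglia also express, summed to 216 and 235 in the stroke pools and to 527 and 629 in the sham pools, nearly all of it Cst3. The part of these markers in the members' changes was not tested.

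**Figure D1:**
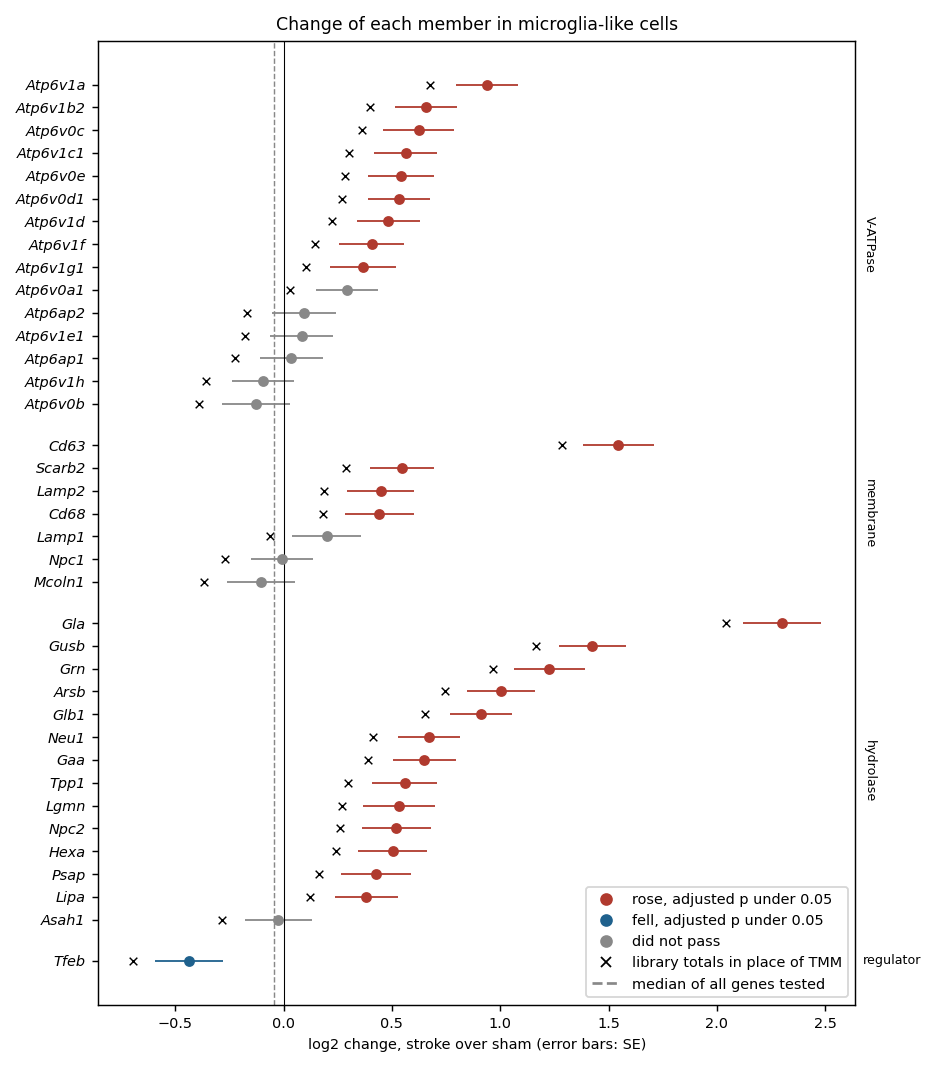
Log2 change of the 37 tested members between stroke and sham microglia-like cells, with points at the fitted change, bars of 1 SE, crosses at the change under library totals and a dashed line at the median of all 13936 genes. Gla at 2.30 lies farthest right, followed by the membrane gene Cd63 at 1.54 and the hydrolase genes Gusb and Grn, and Tfeb alone passes the test below 0.

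Promoters bear on these genes because of the TFEB sequence. RefSeq promoters (GRCm38.p6, 250 bases before to 50 after a gene's start) were matched by symbol for 31 of the 38 members. CACGTG, which reads the same on both strands, stood in the promoter of 10 of these 31 genes (32.3%), against 8.09% of 27025 genes in the table. The longer TCACGTGA, which contains it and is also palindromic, stood in 5 of 31 (16.1%), against 1.12% of all genes. The form with a further G before and C after it was in none of the 31 and in 0.37% of all genes. Stretches of the 5 promoters with TCACGTGA follow, 5′ to 3′ on the gene's strand, with TCACGTGA and CACGTG in capitals. Gla and Mcoln1 each hold 2 copies of CACGTG, and in Gla both are the longer form.
Atp6v0d1 (chr8:105566037-105566092, - strand): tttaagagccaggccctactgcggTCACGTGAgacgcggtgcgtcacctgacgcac
Atp6v0e (chr17:26676374-26676429, + strand): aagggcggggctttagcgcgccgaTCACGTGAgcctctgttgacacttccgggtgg
Atp6v1a (chr16:44139360-44139415, - strand): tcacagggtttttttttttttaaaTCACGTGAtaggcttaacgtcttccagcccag
Gla (chrX:134601169-134601255, - strand): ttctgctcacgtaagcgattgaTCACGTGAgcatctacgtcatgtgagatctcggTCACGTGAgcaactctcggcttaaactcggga
Mcoln1 (chr8:3500423-3500504, + strand): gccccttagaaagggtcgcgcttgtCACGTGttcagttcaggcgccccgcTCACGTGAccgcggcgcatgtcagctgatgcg
The copies in Gla begin 228 and 195 bases before the RefSeq start. Those in Atp6v1a begin 132, in Mcoln1 46 and in Atp6v0d1 4 bases before it, and that in Atp6v0e begins 2 bases after the first base. RefSeq starts can differ from the GENCODE gene bounds used elsewhere in this text. By those bounds the stretches of Atp6v1a and Atp6v0e lie inside the gene, as does the TCACGTGA of Mcoln1, whose gene starts at 3500457. Of the 10 genes with CACGTG 7 rose and 3 did not pass, with a median log2 change of 0.54. Of the 21 genes without it 16 rose, 1 fell and 4 did not pass, with a median of 0.48. Over all genes tested, whatever their promoter, 22.5% rose and 21.5% fell. The most copies of CACGTG, 4, stood in the promoter of Lamp1, and Atp6v0b, Gla and Mcoln1 had 2 each. Of these 4 genes Gla rose and the others did not pass. Both kinds of promoter are thus found among genes that rose and among those that did not.

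Of the 16 V-ATPase genes 15 could be tested, and 9 rose (60.0%) while 6 did not pass, with a median log2 change of 0.41. Over all genes tested 22.5% rose and 21.5% fell. The largest rise was that of Atp6v1a, which encodes the catalytic A subunit (ENSMUSG00000052459, chromosome 16, 44085402 to 44139705 on GRCm38). Atp6v1a was at 0.864 and 0.848 UMIs per 10,000 in the female and male stroke pools, against 0.465 and 0.429 in the female and male sham pools. Both stroke pools were well above both sham pools, and the log2 change was 0.94 ± 0.14 (SE), adjusted p = 2.89e-08. Atp6v1b2, the B subunit that forms the hexameric head with A, behaved likewise. Atp6v1b2 was at 0.990 and 0.979 UMIs per 10,000 in the female and male stroke pools, against 0.633 and 0.615 in the female and male sham pools. Its pools did not overlap, and the log2 change was 0.66 ± 0.14 (SE), adjusted p = 7.20e-05. These 2 genes of the head are the V-ATPase members that kept their calls under each of 16 other settings.

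Other V1 genes changed less. Atp6v1c1 was at 1.37 and 1.36 UMIs per 10,000 in the female and male stroke pools, against 0.877 and 0.971 in the female and male sham pools. This gene encodes subunit C, which holds V1 and V0 together, and the log2 change was 0.56 ± 0.14 (SE), adjusted p = 7.81e-04. Atp6v1d was at 1.21 and 1.18 UMIs per 10,000 in the female and male stroke pools, against 0.767 and 0.957 in the female and male sham pools. It encodes the central rotor shaft, and the log2 change was 0.48 ± 0.15 (SE), adjusted p = 0.00429. Atp6v1f, a further rotor subunit, and Atp6v1g1, part of the outer stalks, rose by the smallest amounts. For Atp6v1f the log2 change was 0.41 ± 0.15 at an adjusted p of 0.0208, and for Atp6v1g1 the log2 change was 0.37 ± 0.15 at an adjusted p of 0.0419. The pools of both were apart, with stroke higher. The other 2 V1 genes did not pass. Atp6v1e1 was at 1.43 and 1.41 UMIs per 10,000 in the female and male stroke pools, against 1.25 and 1.44 in the female and male sham pools. The female and male pools of this gene of the outer stalks went in opposite directions, and the log2 change was 0.08 ± 0.15 (SE), adjusted p = 0.674. For Atp6v1h, the H subunit that keeps free V1 from splitting ATP, the log2 change was -0.10 ± 0.14 at an adjusted p of 0.620, with both stroke pools slightly below both sham pools.

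In the V0 part 3 of 5 tested genes rose (60.0%), beside 22.5% of all genes. Atp6v0c encodes the c subunit, the repeated piece of the proton-carrying ring (ENSMUSG00000024121, chromosome 17, 24163866 to 24169702 on GRCm38). Atp6v0c was at 10.7 and 10.5 UMIs per 10,000 in the female and male stroke pools, against 5.75 and 8.26 in the female and male sham pools. The female sham pool was far below the male one while the stroke pools were level, and the log2 change was 0.62 ± 0.16 (SE), adjusted p = 8.86e-04. Atp6v0d1 was at 1.28 and 1.20 UMIs per 10,000 in the female and male stroke pools, against 0.821 and 0.894 in the female and male sham pools. This gene encodes subunit d, which joins the ring to the rotor, and the log2 change was 0.53 ± 0.14 (SE), adjusted p = 0.00147. For the small subunit gene Atp6v0e the log2 change was 0.54 ± 0.15 at an adjusted p of 0.00188, again with both stroke pools on top. Atp6v0b, whose product is a further ring subunit, differed in direction between the sexes, a difference that was not tested. Atp6v0b was at 7.33 and 7.49 UMIs per 10,000 in the female and male stroke pools, against 7.23 and 9.07 in the female and male sham pools. Only the male sham pool stood out, as the highest, and the log2 change was -0.13 ± 0.16 (SE), adjusted p = 0.539. Atp6v0a1 was at 1.02 and 0.986 UMIs per 10,000 in the female and male stroke pools, against 0.845 and 0.798 in the female and male sham pools. Atp6v0a1 encodes the membrane subunit through which protons pass, and its stroke pools lay above its sham pools. The log2 change was 0.29 ± 0.14 (SE), with an edgeR adjusted p of 0.0887, short of the threshold. Over 16 other settings it ran from 0.031 to 0.41, and the gene passed in some of them but not in others.

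Atp6v0d2, the form of subunit d known from osteoclasts and macrophages, was too low to test. It had 1 UMI over 2933 female stroke cells and 22 UMIs over 2751 male stroke cells among the microglia-like, and none in the 3168 female sham or 4003 male sham cells. All 22 UMIs of the male stroke pool were in 1 cell. In macrophage-like cells of the stroke pools it had 6 UMIs in 6 of 1058 female cells and 8 UMIs in 6 of 564 male cells.

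The 2 accessory proteins did not pass. For Atp6ap1, which helps to assemble V0, the log2 change was 0.04 ± 0.15 at an adjusted p of 0.868. For Atp6ap2, also known as the prorenin receptor, the log2 change was 0.09 ± 0.15 at an adjusted p of 0.639. Their levels in the 4 pools lay between 1.62 and 1.71 UMIs per 10,000 for Atp6ap1 and between 2.24 and 2.46 for Atp6ap2.

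**Figure D2:**
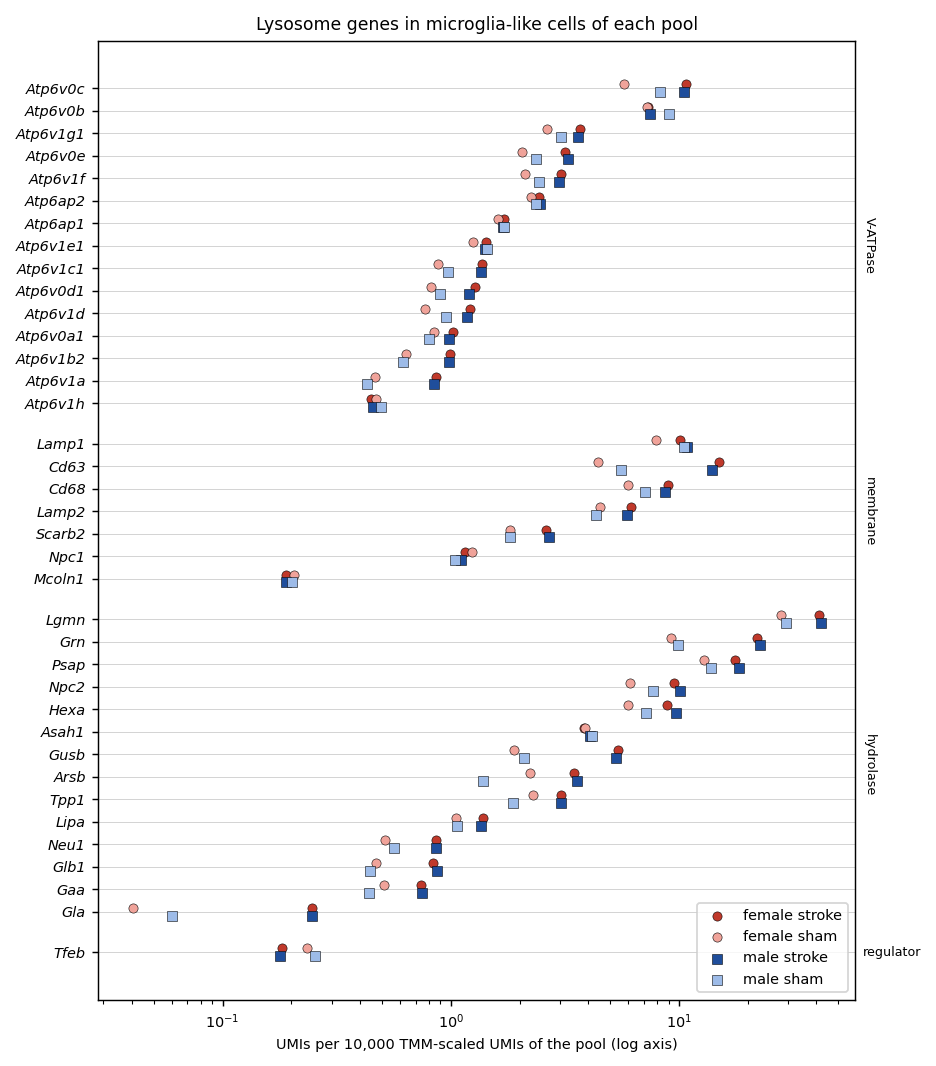
UMIs per 10,000 of the TMM-scaled total (log axis) of the 37 tested members in the microglia-like cells of the 4 pools, 1 point a pool, with genes grouped by role. For Cd63, Gusb, Grn and Gla the 2 stroke points stand well to the right of the 2 sham points, while for Asah1 and Mcoln1 all 4 lie close together.

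Among the 7 membrane genes 4 rose (57.1%) and 3 did not pass, with a median log2 change of 0.44. Over all genes tested 22.5% rose and 21.5% fell. Cd63, a tetraspanin of late endosomes and lysosomes, stood apart from the rest (ENSMUSG00000025351, chromosome 10, 128900989 to 128912822 on GRCm38). Cd63 was at 15.01 and 14.02 UMIs per 10,000 in the female and male stroke pools, against 4.42 and 5.59 in the female and male sham pools. The stroke pools were far above the sham pools, and the log2 change was 1.54 ± 0.16 (SE), adjusted p = 2.47e-14. Cd63 held 34.0% and 32.3% of the UMIs of the membrane group in the female and male stroke pools, where it was the leading gene, while Lamp1 led in both sham pools with 30.5% and 34.5%.

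Scarb2 encodes LIMP-2, the carrier that brings glucocerebrosidase to the lysosome. Scarb2 was at 2.60 and 2.69 UMIs per 10,000 in the female and male stroke pools, against 1.81 and 1.81 in the female and male sham pools. The 2 sham pools were nearly equal and both stroke pools lay above them, and the log2 change was 0.55 ± 0.15 (SE), adjusted p = 0.00145. Lamp2 was at 6.13 and 5.92 UMIs per 10,000 in the female and male stroke pools, against 4.52 and 4.32 in the female and male sham pools. This gene encodes a coat glycoprotein of the membrane that also serves chaperone-mediated autophagy, and the log2 change was 0.45 ± 0.16 (SE), adjusted p = 0.0137. Cd68 was at 8.96 and 8.64 UMIs per 10,000 in the female and male stroke pools, against 5.96 and 7.06 in the female and male sham pools. Cd68 encodes a heavily glycosylated protein used as a marker of phagocytes, its pools were apart, and the log2 change was 0.44 ± 0.16 (SE), adjusted p = 0.0177. Lamp1, the other main coat glycoprotein, did not pass. Lamp1 was at 10.1 and 10.9 UMIs per 10,000 in the female and male stroke pools, against 7.96 and 10.5 in the female and male sham pools. The female sham pool was low and the male sham pool lay between the stroke pools, and the log2 change was 0.20 ± 0.16 (SE), adjusted p = 0.324.

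The members Npc1 and Mcoln1, which serve export from the lysosome, did not pass. Npc1 encodes the membrane protein that passes cholesterol out of the organelle. Npc1 was at 1.16 and 1.11 UMIs per 10,000 in the female and male stroke pools, against 1.24 and 1.04 in the female and male sham pools. Its pools overlapped, and the log2 change was -0.01 ± 0.14 (SE), adjusted p = 0.971. Mcoln1 encodes TRPML1, a channel that releases calcium. Mcoln1 was at 0.189 and 0.189 UMIs per 10,000 in the female and male stroke pools, against 0.205 and 0.202 in the female and male sham pools. Both stroke pools were slightly below both sham pools, and the log2 change was -0.11 ± 0.16 (SE), adjusted p = 0.612.

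Of the 14 genes of the hydrolase group 13 rose (92.9%) and 1 did not pass, with a median log2 change of 0.60. Over all genes tested 22.5% rose and 21.5% fell. With library totals 7 of the group rose, beside 14.7% of all genes. The group includes the cofactor genes Grn, Psap and Npc2. Gla encodes alpha-galactosidase A, which removes galactose from glycolipids (ENSMUSG00000031266, chromosome X, 134588149 to 134601125 on GRCm38). Gla was at 0.246 and 0.246 UMIs per 10,000 in the female and male stroke pools, against 0.0404 and 0.0602 in the female and male sham pools. These are low levels, from 696 and 639 UMIs in the female and male stroke pools and 90 and 153 in the sham pools, and the stroke pools agreed closely. In females the ratio of stroke to sham was 6.08 (95% counting interval 4.88 to 7.67) and in males 4.09 (3.42 to 4.91), and the log2 change was 2.30 ± 0.18 (SE), adjusted p = 5.74e-22. This was the largest change of all members, as it was in 15 of the 16 other settings.

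The rise of Gla was uneven over the cells. Cluster 6 had genes of the G2 and M phases among its leading ones. It held 489 of the 696 Gla UMIs in the female stroke pool (70.3%) and 416 of 639 in the male stroke pool (65.1%). Its cells were deep, with a median of 17185 and 16090 UMIs in the female and male stroke pools. Of the UMIs of all genes in microglia-like cells, it held 11333500 of 31003352 in the female and 9201074 of 28455974 in the male stroke pool. In cells thinned to 3000 UMIs and with no UMI of cell cycle genes Gla was at 0.0932 and 0.0805 UMIs per 10,000 in the female and male stroke pools, against 0.0333 and 0.047 in the sham pools, ratios of 2.80 and 1.71. In cells with at least 3 such UMIs Gla was at 0.313 and 0.263 in the stroke pools. It was at 0.0156 and 0.166 in the 214 and 321 such cells of the female and male sham pools. At 3000 UMIs per cell these levels rest on few Gla UMIs, and the female sham value is near the floor. No counting intervals were computed for the cells with or without cell cycle UMIs, so these ratios are uncertain. Without dividing cells the log2 change of Gla was 1.33, adjusted p = 1.99e-09 in edgeR, below that of Cd63 at 1.52. That setting also left out cells under 3000 UMIs, which every pool but the male sham pool had. Gla was higher in stroke cells in 3 of 4 female and 5 of 9 male clusters with at least 50 cells of both treatments. By comparison Gusb, Grn and Arsb were higher in 4 of 4 female and 9 of 9 male clusters, and Cd63 in 4 of 4 and 7 of 9.

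Further glycan-digesting enzymes rose as well. Gusb encodes beta-glucuronidase (ENSMUSG00000025534, chromosome 5, 129989011 to 130003049 on GRCm38). Gusb was at 5.42 and 5.30 UMIs per 10,000 in the female and male stroke pools, against 1.90 and 2.10 in the female and male sham pools. The stroke pools were more than 2.5-fold above their sham pools, and the log2 change was 1.42 ± 0.16 (SE), adjusted p = 9.05e-14. Arsb was at 3.45 and 3.59 UMIs per 10,000 in the female and male stroke pools, against 2.21 and 1.39 in the female and male sham pools. Arsb encodes arylsulfatase B, which acts on dermatan sulfate, its male sham pool was the lowest, and the log2 change was 1.004 ± 0.16 (SE), adjusted p = 4.03e-08. Glb1 was at 0.839 and 0.871 UMIs per 10,000 in the female and male stroke pools, against 0.469 and 0.440 in the female and male sham pools. Glb1 encodes acid beta-galactosidase and contains the gene Tmppe on the same strand, so reads in the shared stretch could belong to either; the log2 change was 0.91 ± 0.14 (SE), adjusted p = 6.46e-08. For Neu1, a sialidase, the log2 change was 0.67 ± 0.14 at an adjusted p of 5.06e-05. For Gaa, the acid alpha-glucosidase that digests glycogen, the log2 change was 0.65 ± 0.14 at an adjusted p of 9.17e-05. Hexa was at 8.86 and 9.70 UMIs per 10,000 in the female and male stroke pools, against 5.99 and 7.14 in the female and male sham pools. Hexa encodes the alpha subunit of beta-hexosaminidase, its pools were apart, and the log2 change was 0.50 ± 0.16 (SE), adjusted p = 0.00641.

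The 3 genes of secreted and lumenal cofactors rose. Grn encodes progranulin, which is cut into granulins inside the lysosome (ENSMUSG00000034708, chromosome 11, 102430315 to 102437048 on GRCm38). Grn was at 22.0 and 22.6 UMIs per 10,000 in the female and male stroke pools, against 9.19 and 9.87 in the female and male sham pools. The 2 sexes gave nearly the same values in each treatment, and the log2 change was 1.23 ± 0.16 (SE), adjusted p = 3.19e-10. Psap was at 17.6 and 18.3 UMIs per 10,000 in the female and male stroke pools, against 12.9 and 13.8 in the female and male sham pools. Psap encodes the precursor of the saposins, which present sphingolipids to their enzymes, and the log2 change was 0.43 ± 0.16 (SE), adjusted p = 0.0252. Npc2 was at 9.54 and 10.1 UMIs per 10,000 in the female and male stroke pools, against 6.09 and 7.67 in the female and male sham pools. Npc2 encodes the lumenal protein that hands cholesterol to NPC1, and the log2 change was 0.52 ± 0.16 (SE), adjusted p = 0.00507. Psap fell short of the threshold with cluster 7 added, at a log2 change of 0.32 and an adjusted p of 0.0907 in the same edgeR test.

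Of the proteases, the lipase and the ceramidase all but the ceramidase rose. Lgmn was at 41.0 and 41.8 UMIs per 10,000 in the female and male stroke pools, against 27.9 and 29.3 in the female and male sham pools. Lgmn encodes legumain, an asparaginyl endopeptidase, and held the most UMIs of the hydrolase group in every pool; the log2 change was 0.53 ± 0.16 (SE), adjusted p = 0.00522. Tpp1 was at 3.05 and 3.05 UMIs per 10,000 in the female and male stroke pools, against 2.29 and 1.87 in the female and male sham pools. Tpp1 encodes tripeptidyl peptidase, whose female sham pool was above the male one, and the log2 change was 0.56 ± 0.15 (SE), adjusted p = 0.00136. Lipa was at 1.39 and 1.36 UMIs per 10,000 in the female and male stroke pools, against 1.05 and 1.059 in the female and male sham pools. Lipa encodes the acid lipase that frees cholesterol and fatty acids, and the log2 change was 0.38 ± 0.14 (SE), adjusted p = 0.0246. Asah1, which encodes acid ceramidase, was the hydrolase gene that did not pass. Asah1 was at 3.84 and 4.05 UMIs per 10,000 in the female and male stroke pools, against 3.86 and 4.16 in the female and male sham pools. Its 4 pools differed little, and the log2 change was -0.02 ± 0.15 (SE), adjusted p = 0.917.

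Tfeb, the transcription factor that activates many lysosomal genes when it enters the nucleus, was the member that fell (ENSMUSG00000023990, chromosome 17, 47737030 to 47792419 on GRCm38). Tfeb was at 0.182 and 0.178 UMIs per 10,000 in the female and male stroke pools, against 0.234 and 0.255 in the female and male sham pools. Both stroke pools were below both sham pools, and the log2 change was -0.44 ± 0.16 (SE), adjusted p = 0.0172. The levels rest on 517 and 463 UMIs in the female and male stroke pools and 521 and 647 in the sham pools, and with DESeq2 the adjusted p was 0.181 at a log2 change of -0.41. With DESeq2, 26 members rose and none fell by adjusted p (16.1% and 9.06% of all genes), and none was lower at an unadjusted p under 0.05. The RNA level says nothing of where the protein was.

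Over a wider list of 85 other lysosomal genes, 79 were tested, 24 rose (30.4%) and 8 fell (10.1%), with a median log2 change of 0.02, beside the 22.5% and 21.5% of all genes. With library totals 13 rose and 29 fell, beside 14.7% and 40.4% of all genes. Without the female stroke pool 10 rose and 2 fell, and without the male stroke pool 13 and 3, beside the shares of all genes given above for these fits. Without the female sham pool 31 rose and 14 fell, against 26.5% and 24.9% of all genes. Without the male sham pool 34 rose and 18 fell, against 28.4% and 23.5% of all genes. Among 35 further hydrolases, their cofactors and sorting receptors 17 rose (48.6%) and 4 fell (11.4%). The 3 largest rises were those of Acp5, Igf2r and Galns. Acp5, tartrate-resistant acid phosphatase, had 91 and 106 UMIs in the female and male stroke pools and 1 and 3 in the sham pools. The ratios were 71.6 in females (95% counting interval 12.5 to 2859) and 34.6 in males (11.5 to 170.4). For Igf2r, a receptor that sorts hydrolases to the lysosome, the log2 change was 1.94 ± 0.37 at an adjusted p of 4.97e-06. For Galns, a sulfatase of keratan sulfate, the log2 change was 1.89 ± 0.17 at an adjusted p of 1.14e-18. The 3 largest falls were those of Hyal1, a hyaluronidase, where the log2 change was -1.09 ± 0.17 at an adjusted p of 7.66e-08; of Pla2g15, a phospholipase, where the log2 change was -0.64 ± 0.15 at an adjusted p of 1.63e-04; and of Sgsh, which removes sulfate from heparan sulfate, where the log2 change was -0.57 ± 0.21 at an adjusted p of 0.0199.

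Of 24 further membrane genes tested 2 rose (8.33%) and 3 fell (12.5%), both shares below those of all genes. The rises were in Tpcn2, a cation channel, where the log2 change was 1.05 ± 0.17 at an adjusted p of 2.07e-07, and in Clcn7, a chloride and proton exchanger, where the log2 change was 0.61 ± 0.15 at an adjusted p of 4.80e-04. The falls were in the sialomucin gene Cd164, where the log2 change was -0.76 ± 0.16 at an adjusted p of 2.39e-05, in the nucleoside transporter gene Slc29a3, where the log2 change was -0.53 ± 0.15 at an adjusted p of 0.00216, and in Ctns, the cystine exporter, where the log2 change was -0.42 ± 0.15 at an adjusted p of 0.0200. Of the 3 tested subunit isoforms of the V-ATPase outside the members 0 passed with either edgeR or DESeq2, while 2 with edgeR and 1 with DESeq2 had an unadjusted p under 0.05. Of 17 genes of the TFEB family and of nutrient sensing at the lysosome 5 rose (29.4%) and 1 fell (5.88%). The largest rises were in Tfec, a relative of Tfeb counted at 37 and 23 UMIs in the female and male stroke pools and 6 and 10 in the sham pools, where the log2 change was 1.68 ± 0.50 at an adjusted p of 0.00387, and in Lamtor1 and Lamtor2, parts of the anchor of the mTORC1 kinase. For Lamtor1 the log2 change was 0.58 ± 0.15 at an adjusted p of 6.89e-04, and for Lamtor2 the log2 change was 0.54 ± 0.15 at an adjusted p of 0.00136. The fall was in Zkscan3, a repressor of autophagy genes, where the log2 change was -0.49 ± 0.14 at an adjusted p of 0.00321.

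Summed by role, the hydrolase group stood at 119 and 122 scaled UMIs per 10,000 in the female and male stroke pools. In the female and male sham pools it stood at 75.0 and 79.9. This sum, here and below, includes the cofactor genes Grn, Psap and Npc2. The log2 ratio of stroke to sham was 0.66 in females and 0.62 in males. The membrane genes summed to 44.2 and 43.5 in the stroke pools and to 26.1 and 30.6 in the sham pools, with log2 ratios of 0.76 and 0.51. Without the gene with most UMIs the mean of both sexes was 0.33 for the membrane sum in place of 0.63. The V-ATPase genes summed to 40.7 and 40.5 in the stroke pools and to 29.8 and 35.8 in the sham pools, with log2 ratios of 0.45 and 0.18. On plain totals the V-ATPase values were 37.2 and 36.9 in the stroke pools and 33.3 and 38.3 in the sham pools, so that males then had the lower value after stroke, by 0.05 on the log2 scale. The V-ATPase sum also moved with other choices: its log2 ratio was 0.33 in females and 0.09 in males after thinning, 0.35 and 0.098 with stricter quality control, 0.32 and 0.12 without the gene with most UMIs, and 0.56 and 0.30 with cluster 7 added. In both stroke pools Atp6v0c was the V-ATPase gene with most UMIs, at 26.3% and 26.1% of the group, and in both sham pools Atp6v0b was, at 24.3% and 25.3%. Within single cells thinned to 3000 UMIs the median cell of the stroke pools held 34 hydrolase UMIs in either sex, against 24 in female and 25 in male sham cells. The median was 12 and 11 membrane UMIs in the stroke pools against 8 and 9, and 10 V-ATPase UMIs in both stroke pools against 10 and 11.

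The higher hydrolase level was found in each microglia-like cluster that could be compared. The clusters were built without the listed lysosome genes, and the values from here on are plain UMIs per 10,000, given without a test. Hydrolase sums were higher in stroke than in sham cells in 4 of 4 clusters with at least 50 cells of both treatments in females (ratios 1.25 to 1.42) and in 9 of 9 in males (1.19 to 1.41). Membrane sums were higher in 4 of 4 female and 7 of 9 male clusters, with median ratios of 1.32 and 1.12. V-ATPase sums were higher in 4 of 4 female clusters, by 1.03 to 1.07 times, and in 1 of 9 male clusters, where the median ratio was 0.938. Cluster 1, led by genes such as Cst7 and Apoe and made up mostly of stroke cells, had 124 and 126 hydrolase UMIs in the female and male stroke pools and 99.6 and 97.0 in the sham pools. In cluster 0, mostly female sham cells, the values were 115 and 109 in the stroke pools and 81.5 and 81.8 in the sham pools.

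Clusters differed by role. Among stroke cells, the G2 and M phase cluster 6 had 87.5 and 90.5 hydrolase UMIs in the female and male pools, the lowest of the microglia-like clusters with at least 50 cells there. Cells with at least 3 UMIs of cell cycle genes after thinning had 99.7 and 102 hydrolase UMIs in the female and male stroke pools, against 124 and 123 in cells with none. In the sham pools the same values were 82.1 and 83.6, against 83.4 and 85.8. The V-ATPase sum differed little in the stroke pools. It was 35.3 and 35.5 in cells with at least 3 cell cycle UMIs and 35.7 and 35.9 in cells with none. Cells between these limits were in neither group. Cluster 12, with Ccl3 and Ccl4, had the highest V-ATPase sum of the microglia-like clusters, at 43.3 and 42.4 in the stroke pools and 56.2 in the male sham pool. In it Atp6v0c was at 12.5 and 13.4 UMIs per 10,000 in the stroke pools and at 19.6 in the male sham pool. The interferon cluster 9 had 24.1 and 25.4 of Grn in the stroke pools and 13.002 in the male sham pool.

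Cluster 7, nearly all of it stroke cells, had the highest V-ATPase sum of the microglial clusters in both stroke pools, at 46.0 (95% counting interval 45.6 to 46.4) and 45.8 (45.4 to 46.3). Of the 15 V-ATPase genes measured 9 were highest there in both stroke pools, among them Atp6v0c at 13.9 and 13.8 and Atp6v1a at 1.33 and 1.30. The share of all genes that were highest in cluster 7 was not computed, so this count describes the listed genes only. Cd63 reached 22.5 and 22.8 in cluster 7, against 15.1 and 13.3 in the stroke cells of cluster 1. Gla was at 0.71 and 0.68 in cluster 7, against 0.12 and 0.11 in cluster 1. Its hydrolase sum was low, however, at 91.7 and 96.9, with Psap at 9.79 and 10.14 against 19.2 and 19.6 in cluster 1 and Hexa at 5.17 and 5.82 against 10.3 and 10.5. Arsb was at 2.10 and 2.39 there, against 3.57 and 3.69 in cluster 1.

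**Figure D3:**
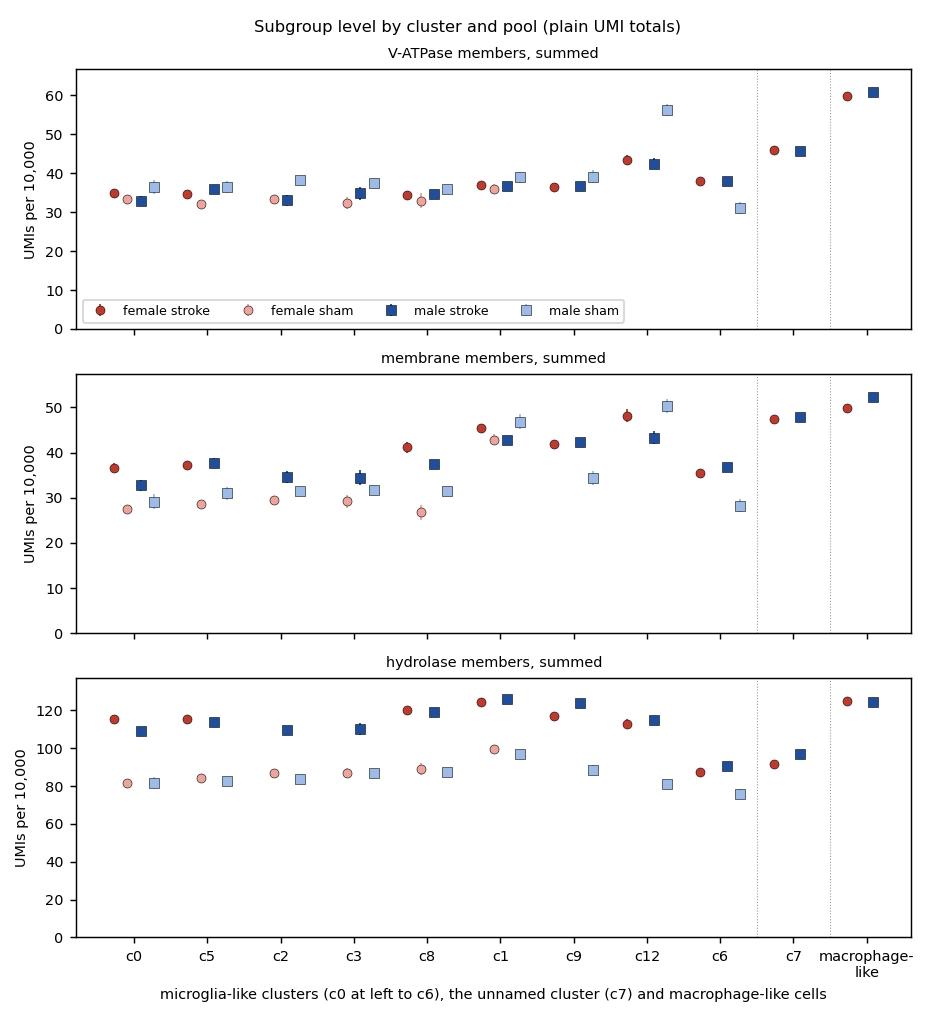
Summed UMIs per 10,000 of the V-ATPase, membrane and hydrolase genes in each microglia-like cluster, in cluster 7 and in macrophage-like cells, by pool, for pools with at least 50 cells and with 95% counting intervals. Hydrolase points of the stroke pools lie above those of the sham pools in every cluster that has both, and the V-ATPase sum is highest in macrophage-like cells, near 60.

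Monocyte-derived macrophage-like cells, which enter the injured brain from blood, numbered 1058 among female and 564 among male stroke cells and only 13 and 44 among female and male sham cells, so they were compared with microglia-like cells of the same stroke pool. They were present in the ZsGreen+ sort, and whether they made ZsGreen or were carried along was not tested. Their V-ATPase sum was 59.9 (95% counting interval 59.5 to 60.3) in females and 60.8 (60.2 to 61.3) in males, against 37.2 (37.0 to 37.4) and 36.9 (36.7 to 37.1) in microglia-like cells. Membrane genes summed to 49.97 and 52.3 against 40.4 and 39.7, and the hydrolase group to 125 and 125 against 109 and 112. Psap alone stood at 46.5 and 45.6 in macrophage-like cells, against 16.1 and 16.7 in microglia-like cells. That gap is wider than the gap of the whole hydrolase sum. Macrophage-like cells were deeper, with a median of 13428 and 13412 UMIs per cell, and after thinning to 3000 UMIs the mean log2 ratio of the hydrolase sum was 0.087 in place of 0.18.

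Of the 15 V-ATPase genes with at least 100 UMIs 10 were at least 1.5-fold higher in macrophage-like cells of both stroke pools and none was 1.5-fold lower. Over all 11766 genes with that many UMIs 12.7% were so much higher and 34.9% so much lower, and the median log2 ratio was -0.32, against 0.81 for the V-ATPase genes. Atp6v1a was at 2.41 and 2.64 UMIs per 10,000 in macrophage-like cells of the female and male stroke pools, against 0.790 and 0.773 in microglia-like cells, a ratio of 3.05 (95% counting interval 2.90 to 3.21) and 3.41 (3.21 to 3.62). Atp6v0c stood at 20.03 and 20.11 UMIs per 10,000 against 9.77 and 9.62. Atp6v0b, Atp6ap2 and Atp6v0a1 were the V-ATPase genes below their level in microglia-like cells, the last with ratios of 0.691 and 0.788.

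Of the 7 membrane genes Npc1 and Cd68 were at least 1.5-fold higher in macrophage-like cells of both pools. Cd68 was at 13.4 and 14.2 UMIs per 10,000 in macrophage-like cells of the female and male stroke pools, against 8.19 and 7.89 in microglia-like cells, a ratio of 1.63 (95% counting interval 1.601 to 1.66) and 1.79 (1.75 to 1.84). Npc1 was at 1.85 and 1.79 UMIs per 10,000 in macrophage-like cells of the female and male stroke pools, against 1.056 and 1.012 in microglia-like cells, a ratio of 1.75 (95% counting interval 1.67 to 1.85) and 1.77 (1.66 to 1.89). Cd63 was nearly level, at 14.9 and 15.3 against 13.7 and 12.8, and Lamp2 was lower, at 4.31 and 4.33 against 5.61 and 5.40.

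The hydrolase group, cofactors included, split in both directions. In macrophage-like cells of both pools 4 were at least 1.5-fold higher and 3 at least 1.5-fold lower, with a median log2 ratio of -0.23. Gla was at 1.21 and 1.18 UMIs per 10,000 in macrophage-like cells of the female and male stroke pools, against 0.224 and 0.225 in microglia-like cells, a ratio of 5.38 (95% counting interval 4.92 to 5.87) and 5.27 (4.77 to 5.84). Psap was at 46.5 and 45.6 UMIs per 10,000 in macrophage-like cells of the female and male stroke pools, against 16.1 and 16.7 in microglia-like cells, a ratio of 2.90 (95% counting interval 2.87 to 2.93) and 2.73 (2.70 to 2.77). Lipa and Npc2 were the other 2 that were higher, Lipa with ratios of 2.43 and 2.81 and Npc2 with 1.75 and 1.59. Arsb was at 0.223 and 0.209 UMIs per 10,000 in macrophage-like cells of the female and male stroke pools, against 3.15 and 3.27 in microglia-like cells, a ratio of 0.0708 (95% counting interval 0.0633 to 0.0788) and 0.0639 (0.0546 to 0.0743). Glb1 had ratios of 0.518 and 0.480 and Gusb 0.571 and 0.604. Lgmn, which had most UMIs of the group in microglia-like cells, stood at 28.1 and 27.2 in macrophage-like cells against 37.5 and 38.1. In macrophage-like cells Psap had most, at 46.5 and 45.6. Tfeb had ratios of 1.56 and 1.40.

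**Figure D4:**
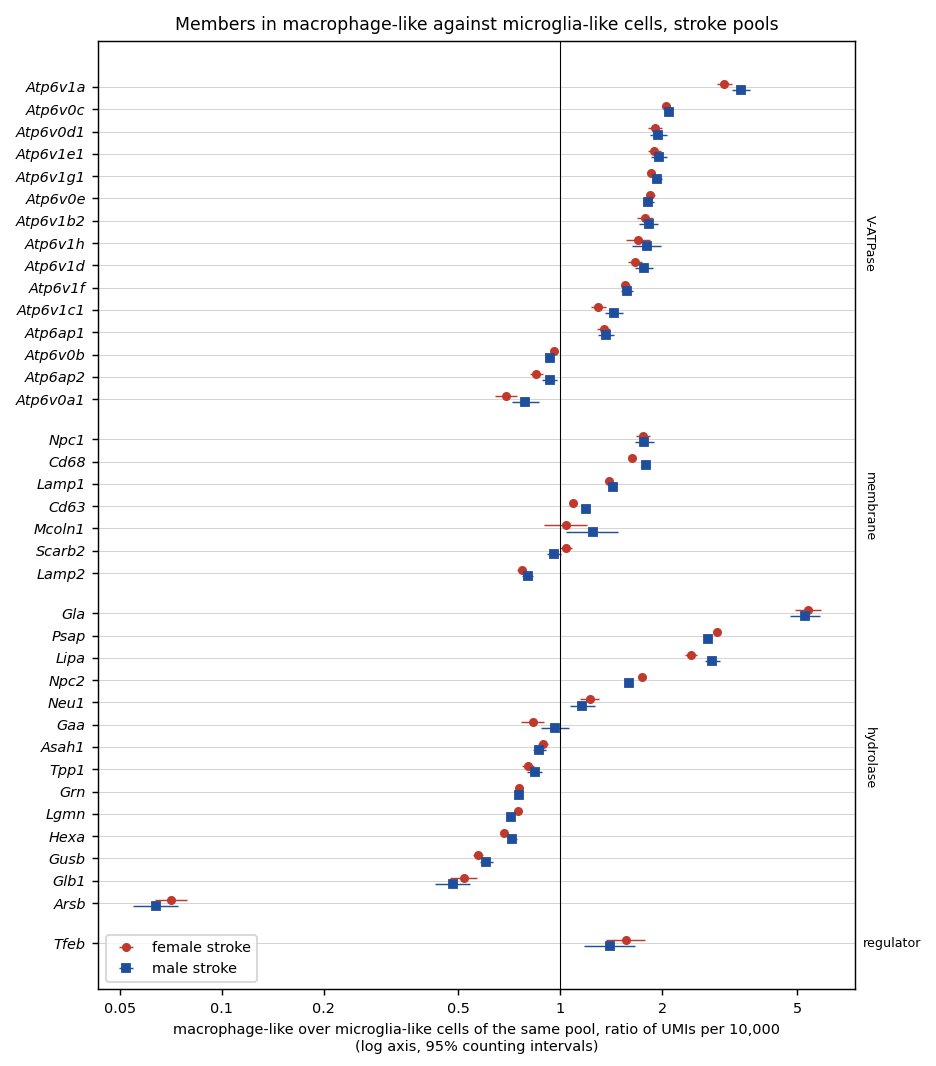
Ratio of UMIs per 10,000 in macrophage-like to microglia-like cells of the same stroke pool (log axis) for 37 members, with 95% counting intervals, circles for the female and squares for the male pool. Gla lies near 5 and Arsb near 0.07 in both pools, and 10 of 15 V-ATPase genes lie at or above 1.5 in both.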

How the data were processed

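The deposited UMI counts per gene and cell of 4 libraries were made by the authors with Cell Ranger 7.1.0 on mm10 per the submitters' processing notes, whereas the file headers name cellranger 6.1.2. Cells with at least 500 genes, 1000 UMIs and at most 10% mitochondrial UMIs were kept, 18045 of 20437 barcodes, and no doublet caller was run. Cells were grouped by Leiden clustering (scanpy 1.11.5, resolution 0.8, 30 principal components, 2000 variable genes) without the listed lysosome genes, and clusters were named from marker lists. UMIs of the microglia-like cells were summed per pool and tested with edgeR 4.0.16 (R 4.3.3; quasi-likelihood, TMM, filterByExpr, sex and treatment as terms), adjusted by Benjamini-Hochberg over all 13936 genes. That left 1 residual degree of freedom, with 110.8 prior degrees borrowed across genes. A gene's p-value thus rests mostly on variation pooled across genes, and little on how closely its own female and male changes match. Atp6v0c, at log2 ratios of 0.89 in females and 0.35 in males, had an SE of 0.162. Grn, at 1.26 and 1.19, had an SE of 0.164. A small p-value therefore does not show that females and males matched for that gene, and the spread between mice was not measured. Each SE is the log2 change divided by the root of the F statistic. Scaled levels are UMIs per 10,000 of the TMM-adjusted total, and were not divided by transcript length. Intervals are exact 95% limits and cover counting error only. DESeq2 1.42.0, library totals, other filters, thinning, other clusterings and leaving out each pool were tried as alternatives. Gene positions come from GENCODE M21 (GRCm38), and promoter starts from RefSeq. All 38 members are named, and of the wider list the 3 largest rises and falls past the threshold in each of its 4 groups. The members and lists were chosen with earlier results of these data known.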

Additional observations from a re-analysis of the deposited data

Results flagged for a closer look

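Among the 37 members tested, 4 had female and male pools that moved in opposite directions, as did 19.9% of all 13936 genes. The difference between the sexes was not tested, since each group is 1 pool. The scaled log2 ratio of stroke to sham was 0.02 in females and -0.276 in males for Atp6v0b, a ring subunit of V0. It was 0.201 in females and -0.034 in males for Atp6v1e1, a stalk subunit of V1, and 0.075 in females and -0.004 in males for the assembly factor gene Atp6ap1. For the cholesterol exporter gene Npc1 it was -0.103 in females and 0.087 in males.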

How the results depend on the processing

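Of the 27 members called, 10 kept their call in all 16 other settings: Atp6v1a, Atp6v1b2, Cd63, Gaa, Gla, Glb1, Gusb, Grn, Neu1 and Arsb. How many of all called genes kept their call in every setting was not computed, so these counts describe the members only. Library totals removed 15 calls of members. They left 2050 genes that rose and 5627 that fell, 11 and 4 members, and 13 and 29 genes of the wider list. DESeq2 gave 1263 genes that fell (2250 rose), no member and 5 wider genes. Thinning gave 1923 genes that rose, 1399 that fell, no member and 5 wider genes that fell. Without dividing cells 1830 genes, no member and 3 wider genes fell. Leaving out 1 pool gave 1867 to 4093 genes that rose and 1215 to 3570 that fell, 10 to 30 members that rose and 0 to 2 that fell, and 10 to 34 and 2 to 18 wider genes. These fits had no sex term, and a lone pool is then assumed to vary like the others. No paired analysis was possible because each group is 1 pool and the labels carry no shared replicate numbers. The sexes were matched by the sex term of the fit, and without it 27 members rose and 1 fell, beside 3089 and 2960 of all genes. The cause of these changes was not tested.

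Reversed log2 changes were all in members that did not pass. With library totals they were -0.18 (Atp6v1e1), -0.23 (Atp6ap1), -0.17 (Atp6ap2) and -0.063 (Lamp1). With DESeq2 they were 0.022 (Npc1) and 0.0057 (Asah1). After thinning they were -0.028 (Atp6ap1), 0.015 (Npc1), 0.043 (Mcoln1) and 0.031 (Asah1). Without dividing cells they were 0.036 (Atp6v0b), 0.10 (Npc1) and 0.19 (Asah1), and without mixed cells 0.036 (Npc1) and 0.0051 (Asah1). Stricter quality control gave -0.0074 (Atp6ap1), no filter on low counts 0.0021 (Npc1), listed genes kept in clustering 0.0026 and cluster 7 added 0.0042 (Atp6v1h). Leaving out 1 pool gave -0.075 to 0.087 (Asah1), -0.0016 to 0.13 (Atp6ap1), -0.29 to 0.093 (Atp6v0b), -0.0195 to 0.25 (Atp6v1e1), -0.13 to 0.0027 (Atp6v1h), -0.0012 to 0.46 (Lamp1) and -0.075 to 0.12 (Npc1).

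The mean log2 ratio of stroke to sham was 0.31 for the V-ATPase, 0.63 for the membrane and 0.64 for the hydrolase sum. With library totals it was 0.052, 0.37 and 0.38. Without the gene with most UMIs it was 0.33 for membrane and 0.70 for hydrolase genes, and with stricter quality control 0.55 for hydrolases. For the V-ATPase sum it was 0.21 after thinning, 0.23 with stricter quality control, 0.22 without its leading gene, 0.43 with cluster 7 and 0.44 with listed genes kept in clustering. The mean log2 ratio of macrophage-like to microglia-like cells was 0.70, 0.35 and 0.18 for the same sums. For the V-ATPase it was 0.62 with listed genes kept in clustering, 0.74 at resolution 1.6, 0.56 without its leading gene and 0.62 with cluster 7. For membrane genes it was 0.43 without the leading gene. For hydrolases it was 0.087 after thinning, 0.23 with listed genes kept, 0.28 at resolution 1.6, 0.14 without mixed cells and 0.23 with cluster 7. It was 0.43 without Lgmn, the gene of that group with most UMIs in microglia-like cells. Psap, which had most in macrophage-like cells, stayed in that sum, and the sum without Psap was not computed. Adding cluster 7, and library totals for the sums, were chosen after the data were seen.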
